A study of Mus musculus with 6 samples.

Results

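The endoplasmic reticulum chaperones and their regulators were examined in the liver of mouse pups in which a human *SRY* transgene was switched on. The set was chosen by name: every probe of the deposited liver table whose gene symbol was *Hspa5*, *Hsp90b1*, *Pdia3*, *Pdia4*, *Pdia6*, *Calr*, *Canx*, *Dnajb9*, *Xbp1* or *Herpud1*. This gave 11 probes of 10 genes, of 25697 probes and 18138 symbols in all. *Herpud1* had 2 probes and each of the other genes had a single probe, and a search under older gene names found 0 further probes.

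To compare organs of pups with and without the active transgene, the study hybridised liver RNA to single-colour Illumina MouseRef-8 bead arrays. The RNA came from male FVB/N pups (FVB in the labels) at postnatal day 6, with 3 arrays for hSRY-OFF and 3 for hSRY-ON. In the study's system a silent, FLAG-tagged human *SRY-IRES-EGFP* cassette lies behind a *DsRed2* gene driven by the ubiquitous *CAG* promoter, as a single copy at a defined genomic site. Cre recombinase carried over from the oocyte of a *Ddx4-Cre* mother removes *DsRed2* in the fertilised egg, so that hSRY-ON pups make human SRY and EGFP in all tissues in which the promoter works, and not only in hepatocytes. By the methods, hSRY-OFF stands for mice with the unrecombined cassette, in which *DsRed2* is made in place of SRY and EGFP, and hSRY-ON mice used for the arrays did not carry the *Ddx4-Cre* transgene themselves. The transgene was thus switched on before any organ formed. The study also describes control littermates that carry no cassette, and the labels give no genotype beyond the name hSRY-OFF, so whether the control livers made *DsRed2* is not known here. The methods give 3 mice per group, so each array was taken as a pup, while the labels name no animals or litters. By postnatal day 6 the study saw retarded growth in hSRY-ON pups and the death of some. It also reports stomachs lacking milk and livers with fat build-up in these pups. Effects of SRY in the liver and of these states cannot be told apart here.

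The endoplasmic reticulum is where secreted and membrane proteins fold, and hepatocytes, which make most plasma proteins, are rich in it. When unfolded proteins build up, the sensors IRE1, PERK and ATF6 start the unfolded protein response: IRE1 splices *Xbp1* mRNA into the form that encodes an active transcription factor, ATF6 is cut free in the Golgi, and PERK slows translation while favouring that of ATF4. XBP1 and ATF6 act on chaperone genes through the endoplasmic reticulum stress element (ERSE), and ATF4 acts on genes of amino acid metabolism and on *Ddit3*, which encodes CHOP.

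The promoters of the 10 genes were read from the RefSeq window of 250 bases before to 50 bases after the annotated start (GRCm38.p6), and exact motif matches were sought on both strands. The ERSE, CCAAT and CCACG with 9 bases of any kind between them, was present in 5 of the 10 members and in 0.119% of all 32851 windows. These stretches are shown because they are the response elements through which the chaperones are known to be induced together. They are written on the strand of the gene with the match in capitals, 20 bases on either side.
Hspa5: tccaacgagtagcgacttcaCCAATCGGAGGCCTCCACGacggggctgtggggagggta
Hsp90b1, distal: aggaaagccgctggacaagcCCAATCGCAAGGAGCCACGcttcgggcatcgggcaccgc
Hsp90b1, proximal: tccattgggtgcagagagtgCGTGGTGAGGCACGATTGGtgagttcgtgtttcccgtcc
Calr: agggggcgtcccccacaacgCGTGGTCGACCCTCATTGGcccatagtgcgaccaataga
Canx: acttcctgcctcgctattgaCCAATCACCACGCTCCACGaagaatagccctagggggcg
Pdia6: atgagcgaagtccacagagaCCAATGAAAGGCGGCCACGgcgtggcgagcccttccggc
In *Calr* and in the proximal *Hsp90b1* element the match lies on the opposite strand, so it reads from CGTGG to ATTGG. The stretches lie at chr2:34772005-34772063 (*Hspa5*, plus strand), chr10:86705618-86705676 and chr10:86705513-86705571 (*Hsp90b1*, minus strand), chr8:84847055-84847113 (*Calr*, minus strand), chr11:50325780-50325838 (*Canx*, minus strand) and chr12:17266471-17266529 (*Pdia6*, plus strand), all upstream of the transcription start.

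*Herpud1* held no ERSE and was the single member with the related ERSE-II, ATTGG and CCACG with 1 base of any kind between them, which was found in 0.0365% of all windows, and with the ATF4 composite element TGATGNAA, found in 3.97% of them. Both stretches are shown because *Herpud1* rose in the array data while the other called members, *Calr*, *Pdia3* and *Pdia4*, fell. They were picked with those values known, and a part of these elements in the rise was not tested.
Herpud1, ERSE-II: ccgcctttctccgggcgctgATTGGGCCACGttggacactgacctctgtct
Herpud1, ATF4 element: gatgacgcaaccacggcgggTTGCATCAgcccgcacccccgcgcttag
These lie on the plus strand at chr8:94386357-94386407 and chr8:94386297-94386344, and the ATF4 element matched on the opposite strand. The shorter motif CCACG, which is part of both ERSE forms, was found in 8 of 10 members and in 32.8% of all windows. The element TGACGTGG, known as UPRE, was found in 0 members and in 0.676% of all windows, and the core AACAAT bound by SRY in 0 members and in 10.7% of windows. *Pdia3* and *Xbp1* held no match to any of the motifs in this window, and *Pdia4* and *Dnajb9* only CCACG. A match gives the letters present in the window and does not show binding.

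**Figure D1:**
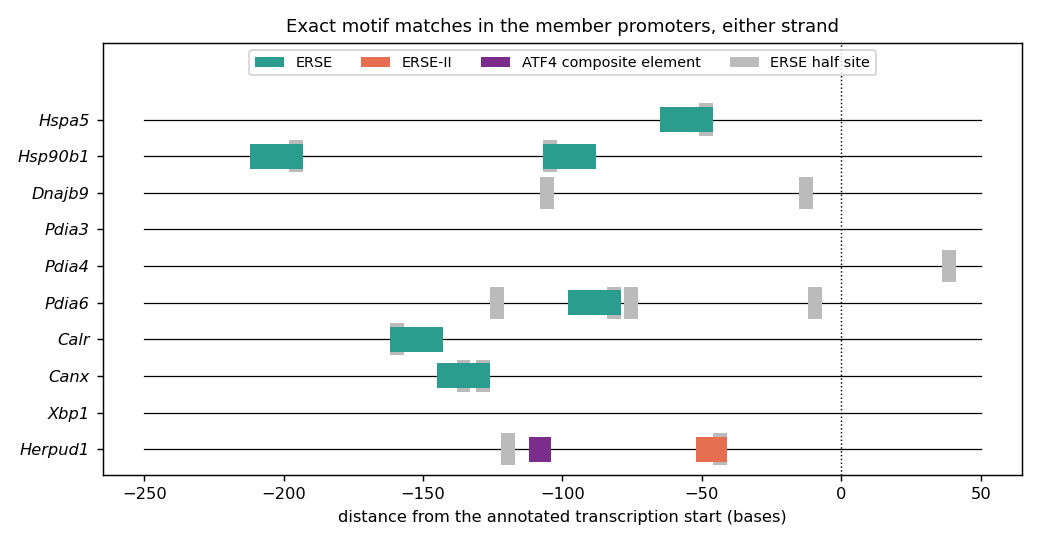
Positions of exact motif matches in the promoter windows of the 10 member genes, on either strand, against the distance in bases from the annotated transcription start (dotted line). The 6 ERSE matches of 5 genes lie upstream of the start, and *Herpud1* alone carries the ERSE-II and the ATF4 element.

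Levels are given as log2 normalized intensity after background correction with an offset of 16, and a difference is hSRY-ON minus hSRY-OFF on that scale. A probe was tested when its detection p was under 0.01 on at least 3 of the 6 arrays, and called when limma's Benjamini-Hochberg adjusted p, taken over all 10734 tested probes, was under 0.05. Of the 11 member probes 8, of 7 genes, were tested. Of these, 3 were lower in hSRY-ON (*Calr*, *Pdia4* and *Pdia3*), 2 were higher (both of *Herpud1*) and 3 were not called (*Hsp90b1*, *Dnajb9* and *Xbp1*). Among all tested probes 33.1% were called, 15.8% higher and 17.2% lower, so the 2 higher and 3 lower of 8 stand against a background in which about as many probes rose as fell. The groups did not overlap for the same 2 higher and 3 lower member probes, against 25.4% higher and 24.6% lower of all tested probes. The median difference was -0.15 over the 8 member probes and 0.02 over all tested probes.

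**Figure D2:**
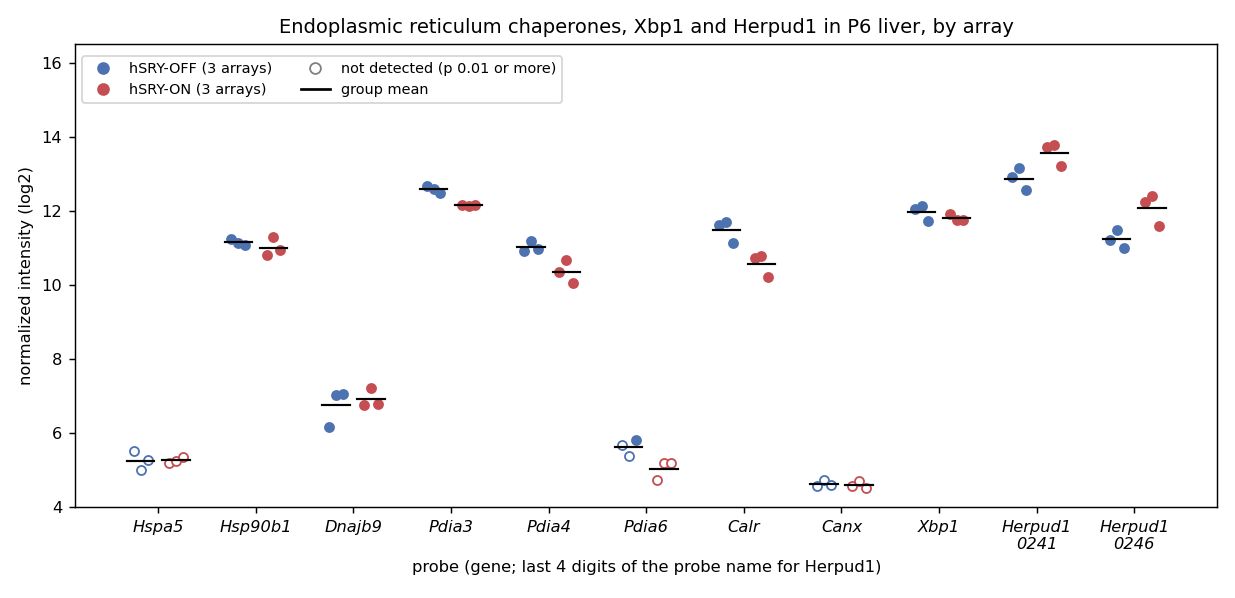
Normalized intensity (log2) of the 11 member probes on each array, with blue points for hSRY-OFF, red for hSRY-ON, open points where the probe was not detected, and a line at each group mean. *Calr*, *Pdia3* and *Pdia4* lie lower and both *Herpud1* probes higher on every hSRY-ON array, while *Hspa5*, *Canx* and *Pdia6* lie near the background.

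*Hspa5* encodes BiP, the Hsp70 chaperone of the endoplasmic reticulum, which also holds the stress sensors inactive. Its probe (ILMN_1255561) was detected on 0 of 6 arrays, with normalized intensities of 5.52, 5.0 and 5.27 in hSRY-OFF and 5.21, 5.25 and 5.36 in hSRY-ON. Detection p-values ranged from 0.0251 to 0.0977, so the values are near the background of the arrays and the groups overlapped. Hepatocytes express BiP strongly, and the probes of the liver genes *Fgb* and *Tat* were likewise detected on 1 array and on 0 arrays, so a probe at background here gives no level for its gene. No difference in *Hspa5* can be read from this array, and the genes most like it in pattern were not sought.

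*Hsp90b1* encodes GRP94, the Hsp90 chaperone of the endoplasmic reticulum. Its probe read 11.23, 11.12 and 11.08 in hSRY-OFF and 10.80, 11.29 and 10.94 in hSRY-ON. The second hSRY-ON array was the highest of all 6 and the other two the lowest, so the groups overlapped. The difference was -0.14 (SE 0.15, 95% confidence interval -0.50 to 0.22, limma adjusted p = 0.526), which leaves room for a fall of up to 0.50 or a rise of up to 0.22.

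*Dnajb9* encodes ERdj4, a J-domain co-chaperone of BiP. It was dim, at 6.18, 7.02 and 7.06 in hSRY-OFF and 6.75, 7.23 and 6.80 in hSRY-ON. The first hSRY-OFF array was the lowest of all 6 and the groups overlapped. The difference was 0.17 (SE 0.26, 95% confidence interval -0.44 to 0.79, limma adjusted p = 0.646), and without that hSRY-OFF array it turned to -0.12.

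*Calr* and *Canx* encode the lectin chaperones calreticulin and calnexin, which hold glycoproteins until they are folded. *Calr* gave the largest fall among the member probes. It read 11.63, 11.71 and 11.12 in hSRY-OFF and 10.72, 10.78 and 10.22 in hSRY-ON. Every hSRY-ON array lay below every hSRY-OFF array, and the third array was the lowest in both groups. The mean fell from 11.49 ± 0.32 to 10.58 ± 0.31 (SD, n = 3 arrays each), a difference of -0.91 (SE 0.22, 95% confidence interval -1.42 to -0.40) or 1.88-fold lower, with a limma adjusted p of 0.0168. Without hSRY-OFF array 1 or 2 the adjusted p rose to 0.0662 and 0.0646. The *Canx* probe was detected on 0 of 6 arrays, at means of 4.64 ± 0.09 and 4.59 ± 0.09, and says nothing about the level of calnexin.

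*Pdia3*, *Pdia4* and *Pdia6* encode protein disulfide isomerases, which form and rearrange disulfide bonds, and PDIA3 works together with calreticulin and calnexin on glycoproteins. *Pdia3* read 12.66, 12.59 and 12.49 in hSRY-OFF and 12.16, 12.14 and 12.16 in hSRY-ON. The hSRY-ON arrays were nearly level and all lay below the hSRY-OFF arrays. The mean fell from 12.58 ± 0.08 to 12.15 ± 0.01 (SD, n = 3 each), a difference of -0.42 (SE 0.11, 95% confidence interval -0.68 to -0.17) or 1.34-fold lower, with a limma adjusted p of 0.0237. The call was lost without hSRY-OFF array 1 or 2 (adjusted p = 0.0999 and 0.0820) or hSRY-ON array 1 or 2 (0.0582 and 0.0508).

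*Pdia4* read 10.90, 11.18 and 10.98 in hSRY-OFF and 10.36, 10.67 and 10.04 in hSRY-ON. The groups did not overlap, and the third hSRY-ON array was the lowest. The mean fell from 11.02 ± 0.14 to 10.36 ± 0.32 (SD, n = 3 each), a difference of -0.66 (SE 0.18, 95% confidence interval -1.09 to -0.24) or 1.58-fold lower, with a limma adjusted p of 0.0281. It was not called without hSRY-OFF array 1, 2 or 3 (adjusted p = 0.0645, 0.0998 and 0.0671) or hSRY-ON array 1 (0.0724).

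*Pdia6* encodes a further isomerase, which is also known to act on the sensor IRE1. Its probe was detected on 1 hSRY-OFF array and on 0 hSRY-ON arrays and was not tested. It read 5.68, 5.39 and 5.82 in hSRY-OFF and 4.72, 5.19 and 5.18 in hSRY-ON, so the groups did not overlap but lay near the background. With looser filters its difference was -0.60, with a limma adjusted p of 0.0430 where a detection p under 0.05 on 3 arrays was asked for and 0.0674 where no filter was applied. The probe passed the looser filter through the hSRY-OFF arrays alone (detection p 0.015, 0.024 and 0.0063). On the hSRY-ON arrays detection p was 0.33, 0.075 and 0.063. A lower value in hSRY-ON was thus favoured by the filter, and the adjusted p of 0.0430 adds no support for a fall.

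*Xbp1* encodes the transcription factor that IRE1 switches on by splicing its mRNA. Its probe read 12.04, 12.14 and 11.73 in hSRY-OFF and 11.90, 11.75 and 11.75 in hSRY-ON. The third hSRY-OFF array was the lowest of all 6, so the groups overlapped. The difference was -0.17 (SE 0.14, 95% confidence interval -0.50 to 0.16, limma adjusted p = 0.394). A single probe does not tell spliced from unspliced *Xbp1*, so activity of the factor was not measured.

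*Herpud1* encodes HERP, a membrane protein of the endoplasmic reticulum that takes part in the degradation of misfolded proteins. It was the single member gene that rose. Probe ILMN_2790241 read 12.90, 13.16 and 12.55 in hSRY-OFF and 13.73, 13.77 and 13.20 in hSRY-ON. The groups did not overlap, although the lowest hSRY-ON array, the third, lay close to the highest hSRY-OFF array. The mean rose from 12.87 ± 0.31 to 13.57 ± 0.31 (SD, n = 3 each), a difference of 0.70 (SE 0.21, 95% confidence interval 0.20 to 1.2) or 1.62-fold, with a limma adjusted p of 0.0423. Probe ILMN_2790246 read 11.21, 11.48 and 11.00 in hSRY-OFF and 12.25, 12.40 and 11.59 in hSRY-ON. Here too the third array was the lowest in both groups and the groups did not overlap. The difference was 0.84 (SE 0.24, 95% confidence interval 0.29 to 1.39) or 1.79-fold, with a limma adjusted p of 0.0302. Both probes read the same mRNA, so they count as a single gene. Both calls were lost without hSRY-OFF array 1 or 3 or hSRY-ON array 1 or 2, where adjusted p-values lay between 0.0739 and 0.122. They were also lost with median scaling (0.127 and 0.0807), with a trimmed-mean (TMM) scaling (0.142 and 0.0890) and with no filter on dim probes (0.0802 and 0.0614).

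**Figure D3:**
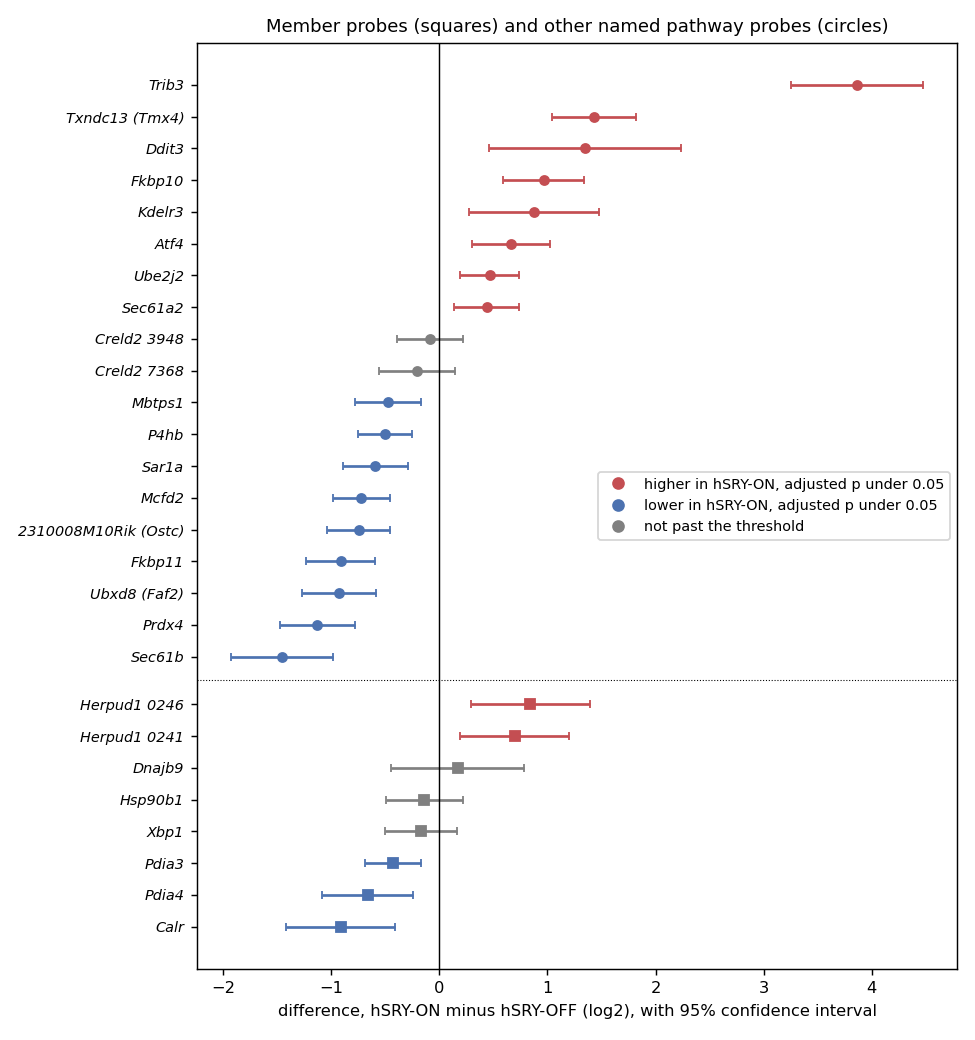
Difference between hSRY-ON and hSRY-OFF (log2, hSRY-ON minus hSRY-OFF) with its 95% confidence interval for the tested member probes (squares) and for the other named probes of the pathway (circles). *Calr*, *Pdia4* and *Pdia3* lie below 0 and both *Herpud1* probes above it, while the intervals of *Hsp90b1*, *Xbp1* and *Dnajb9* span 0.

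*Calr* and *Herpud1* were set against each other on each array, a comparison chosen after their values were seen and given as a description. The *Herpud1* probe ILMN_2790241 exceeded *Calr* by 1.27, 1.46 and 1.43 on the hSRY-OFF arrays and by 3.01, 2.98 and 2.98 on the hSRY-ON arrays. The gap widened by 1.61, and by 1.53 on the deposited intensities without any normalization. For probe ILMN_2790246 it widened by 1.75, and by 1.65 on the deposited intensities. A widening followed from choosing the gene with the largest fall and the one that rose, so it adds no support to either. Within the groups they varied together: over the 6 arrays the deviations from the group means of *Calr* correlated with those of the *Herpud1* probes at r = 0.97 and 0.92. Array 3 of each group was lowest in both genes and also had the lowest median deposited intensity of its group, and the part of this in the results was not tested. Of the 28 pairs among the 8 tested member probes 23 had a correlation above 0 within groups, with a range from -0.80 (*Dnajb9* and *Pdia3*) to 0.97, all of them over arrays that also share their scaling.

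**Figure D4:**
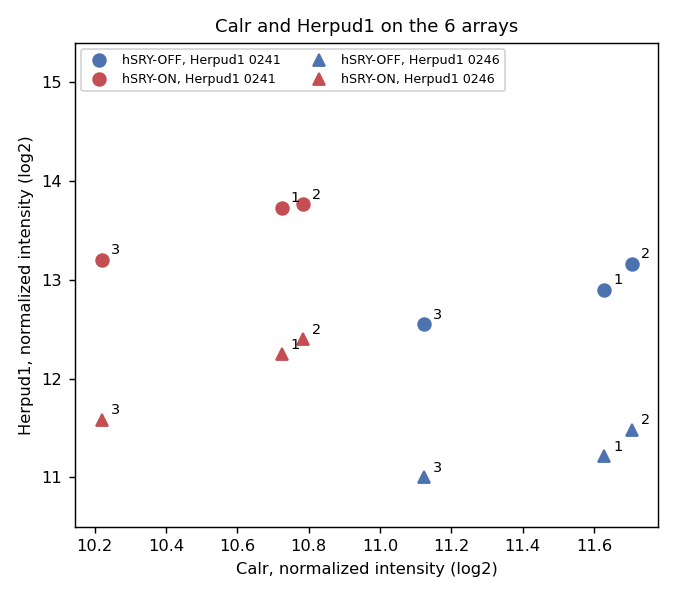
Normalized intensity (log2) of both *Herpud1* probes against that of *Calr* on the 6 arrays, each point an array of hSRY-OFF or hSRY-ON. Within each group the points rise together, and the hSRY-ON points lie to the left of and above the hSRY-OFF points.

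The other genes of the pathway were taken from lists of 152 genes, of which 106 had at least 1 tested probe. Of their 151 tested probes 16 (of 12 genes) were higher and 38 (of 29 genes) lower in hSRY-ON, with a median difference of -0.14. Of all tested probes 15.8% were higher and 17.2% lower. The disulfide enzymes and the glycan quality control genes, which work beside the PDI and calreticulin members, fell more often than they rose. Of 17 disulfide enzyme probes 7, of 4 genes, were lower and 2, of 1 gene, higher, with a median of -0.33. Both higher ones belong to the thioredoxin-related *Tmx4* (*Txndc13* in the table), and the one with the smaller p rose by 1.43 (limma adjusted p = 0.00105). Among the lower ones were *P4hb*, which encodes the classical protein disulfide isomerase and fell by 0.50 (adjusted p = 0.0119), and *Prdx4*, a peroxiredoxin of the endoplasmic reticulum, which fell by 1.13 (adjusted p = 0.00181). Of 16 glycan quality control probes 7, of 5 genes, were lower and 0 higher, with a median of -0.36. At an unadjusted limma p under 0.05, 8 of these probes were lower and 0 higher. *Mcfd2*, a partner of the cargo receptor LMAN1, fell by 0.72 (adjusted p = 0.00361). These counts rest on single arrays: the 7 lower glycan probes became 2 without hSRY-OFF array 1 or hSRY-ON array 1 and 3 without hSRY-OFF array 2, and the 7 lower disulfide probes became 4 without hSRY-OFF array 1.

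Among the further chaperones and cofactors 2 of 20 probes were higher and 3 lower, with a median of -0.09. Neither share exceeded that of all tested probes (15.8% higher and 17.2% lower). The collagen-binding prolyl isomerase *Fkbp10* rose by 0.97 and the related *Fkbp11* fell by 0.91 (limma adjusted p = 0.00423 and 0.00298). *Creld2*, a gene known to be induced in endoplasmic reticulum stress, was not called with either probe (differences -0.21 and -0.09, adjusted p = 0.319 and 0.644). *Hyou1* and *Manf* (*Armet* in the table), which respond to the same stress, were detected on 0 arrays, and *Sdf2l1* was not matched to a probe by name. Of 22 probes for degradation from the endoplasmic reticulum, the process in which HERP takes part, 1 was higher and 1 lower, with a median of -0.13. Both shares lay below those of all tested probes. The ubiquitin-conjugating enzyme *Ube2j2* rose by 0.47 and *Faf2* (*Ubxd8* in the table), which recruits the extracting ATPase, fell by 0.92 (limma adjusted p = 0.0198 and 0.0037). The count of 1 higher degradation probe became 0 without any single hSRY-OFF array or hSRY-ON array 1 and with median or TMM scaling and 2 without hSRY-ON array 3, and that of 1 lower became 2 without hSRY-ON array 1 or 3 and 3 without hSRY-ON array 2 and under both scalings. Of the chaperones and cofactors 1 was higher in place of 2 without any single array other than hSRY-ON array 3, and 4 without that one.

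Genes for the machinery that brings proteins into the organelle and glycosylates them were also more often lower than higher. The shares over all tested probes were 17.2% lower and 15.8% higher. Of 23 translocon and signal peptidase probes 9, of 7 genes, were lower and 1 higher, with a median of -0.21. Of 11 oligosaccharyltransferase probes 5, of 5 genes, were lower and 0 higher (0 also at an unadjusted limma p under 0.05), with a median of -0.28. *Sec61b*, a subunit of the protein-conducting channel, fell by 1.45 and *Ostc* (*2310008M10Rik* in the table), a subunit of the oligosaccharyltransferase, by 0.75 (limma adjusted p = 0.00219 and 0.00467). The channel isoform *Sec61a2* rose by 0.44 (adjusted p = 0.0365). Of 24 probes for transport to the Golgi 3 were lower and 1 higher, with a median of -0.16. Both are smaller shares than those over all tested probes. The coat GTPase *Sar1a* fell by 0.59 and the KDEL receptor *Kdelr3* rose by 0.88 (limma adjusted p = 0.0121 and 0.0352). The lower translocon count became 4 without hSRY-OFF array 1 or 2, and the single higher probe was lost without any hSRY-OFF array or hSRY-ON array 2 and with median or TMM scaling. The lower oligosaccharyltransferase count became 1 without hSRY-OFF array 1 or 2 or hSRY-ON array 2 and 2 without hSRY-OFF array 3 or hSRY-ON array 1. The lower Golgi transport count became 0 without hSRY-OFF array 1 or 2 and 7 without hSRY-ON array 3, and the single higher probe was lost without any hSRY-OFF array or hSRY-ON array 1, with TMM scaling and with no filter.

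The stress sensors and the ATF4 and CHOP branch were taken as separate lists, to be set beside 15.8% higher and 17.2% lower over all tested probes. In the list of sensors and their proteases 3 of 5 tested probes were lower and 0 higher (0 also at an unadjusted limma p under 0.05), and all 3 belong to *Mbtps1*, the protease that cuts ATF6, which fell by 0.47 at the probe with the smallest p (adjusted p = 0.0287). This count became 0 with median or TMM scaling and without hSRY-OFF array 2 or 3 or hSRY-ON array 1 or 3, and 1 without hSRY-OFF array 1. *Ern1*, which encodes IRE1, was detected on 0 arrays, and *Eif2ak3* (PERK) and *Atf6* were not matched to a probe by name. In the list of the ATF4 and CHOP branch 9 of 13 tested probes, of 6 genes, were higher and 0 lower. At an unadjusted limma p under 0.05, 1 was lower. The median difference was 1.35. Several of the 9 share a gene, *Trib3* or *Asns*. The *Trib3* probe ILMN_1244279 passed the filter through hSRY-ON alone (hSRY-OFF detection p 0.015, 0.043 and 0.098). Its higher value in hSRY-ON was thus favoured by the filter. *Trib3* ILMN_1252762 passed on a single hSRY-OFF array (detection p 0.0038), so it too relied on hSRY-ON. With detection p under 0.01 asked for on all 6 arrays, 7 probes were higher and 0 lower. Without hSRY-OFF array 1 the 9 became 5. The probe lower at an unadjusted p was that of *Atf5* (difference -0.33, limma adjusted p = 0.0635). The count of 0 lower became 1 with the other background corrections, with median or TMM scaling, with a trended and robust variance model and with array weights. *Trib3*, a target of ATF4 and CHOP, read 6.83, 6.40 and 6.29 in hSRY-OFF and 10.89, 9.93 and 10.29 in hSRY-ON, a rise of 3.86 (SE 0.26, adjusted p = 0.000151). *Ddit3* read 7.95, 7.80 and 8.25 in hSRY-OFF and 10.30, 8.92 and 8.84 in hSRY-ON, a rise of 1.35 (SE 0.38, adjusted p = 0.0308), while its second probe was detected on 1 array. *Atf4* rose by 0.66 (adjusted p = 0.0157) with the probe that was detected. Besides *Herpud1*, no member shared this direction with a call.

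**Figure D5:**
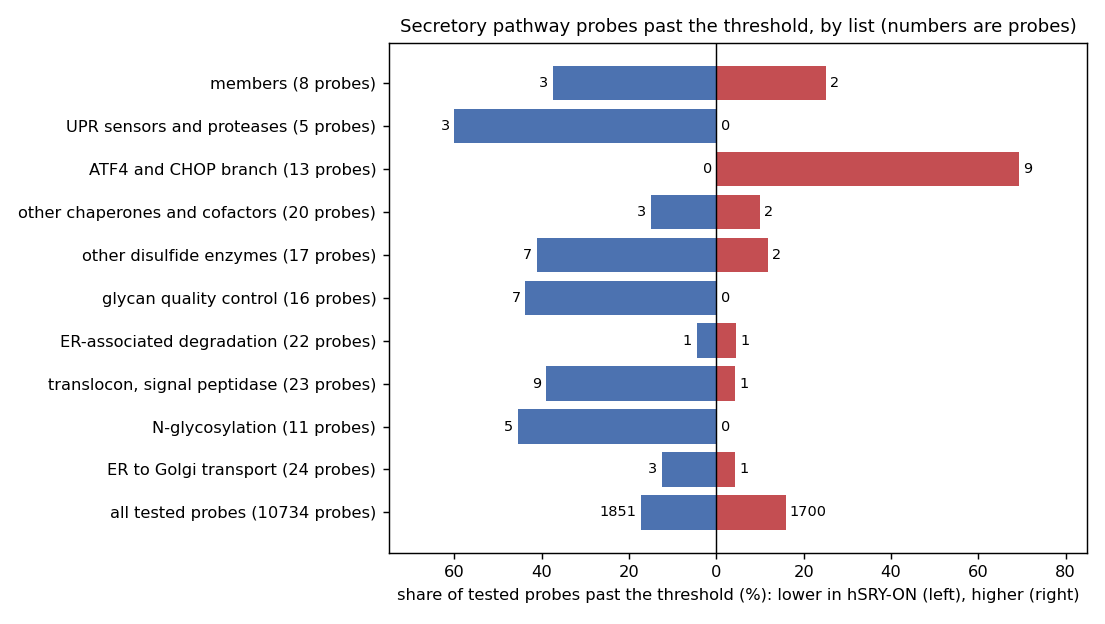
Share of tested probes (percent) past the limma adjusted p of 0.05 in each list of the secretory pathway, lower in hSRY-ON to the left and higher to the right, with the number of probes printed at the bars, beside the members and all tested probes. The ATF4 and CHOP list is the one that lies mostly to the right, while the sensor, disulfide, glycan, translocon and oligosaccharyltransferase (N-glycosylation) lists lie mostly to the left.

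Markers of the cell types that could hold these transcripts also differed between the groups, and their part in the member results was not tested. Over all tested probes 15.8% were called higher and 17.2% lower. The marker lists are short, so small counts in them cannot be told apart from these shares. Hepatocyte markers were present as the tissue label says, with 9 of 10 genes detected, and their summed normalized intensity was 160585 to 164347 in hSRY-OFF and 145249 to 152630 in hSRY-ON, where 4 of 10 tested probes were lower and 0 higher. The summed markers of B and plasma cells were 2300 to 2739 in hSRY-OFF and 754 to 1515 in hSRY-ON. In this list 6 of 6 tested probes were lower, among them *Sdc1*, which hepatocytes also make. The plasma cell markers *Jchain* and *Irf4* were detected on 0 arrays. Stellate cell and fibroblast markers ranged from 15281 to 17331 in hSRY-OFF and from 23691 to 25735 in hSRY-ON, but the list went both ways: 5 probes of 2 genes were higher (4 of them *Acta2*) and 3 probes of 3 genes lower, with a median of 0.16 over 13 tested probes. Endothelial markers ranged from 14146 to 16574 and from 16831 to 19469, with 6 of 11 tested probes higher and 1 lower. Macrophage markers ranged from 13748 to 17110 in hSRY-OFF and from 10907 to 13528 in hSRY-ON, with 4 of 12 tested probes lower and 1 higher, and erythroid markers from 63546 to 81973 and from 79988 to 92198, with 2 of 7 higher. Exocrine pancreas markers ranged from 649 to 770 and from 895 to 1821, with the defining *Prss2*, *Pnlip* and *Ptf1a* detected on 0 arrays. Only 2 exocrine probes were tested, of which 1 was higher and 0 lower. Of 12 tested neutrophil probes 0 were higher and 0 lower, but the summed markers reached 113922 on hSRY-ON array 3 against 42130 to 61929 on the other 5 arrays. Without that array all 5 member calls held, with limma adjusted p-values from 0.00395 to 0.0420. In whole liver, fewer cells of a type and less RNA per cell cannot be told apart.

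Median deposited intensities of the 6 arrays ranged from 147 to 165 and the highest from 44365 to 47161, and 10318 to 10762 probes were detected per array. The median SD of a probe was 0.14 in hSRY-OFF and 0.21 in hSRY-ON, and 0.14 in hSRY-ON without array 3. A median SD over fewer arrays tends to come out smaller, so the value without array 3 cannot be compared directly with that of hSRY-OFF. The number of arrays limits the precision.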

How the data were processed

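Per the labels, RNA was extracted with a Trizol-based kit, amplified and biotin-labelled. The table deposited by the authors gives, for each array, a mean bead intensity on a linear scale with no normalization and a detection p-value, the rank of the probe against negative control beads. The methods name TCC for normalization, and the submitters' processing notes name limma, with no version. Intensities are not counts, so limma was used in place of a count model, and other organs were not analysed here.

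Background was removed with nec of limma 3.58.1 in R 4.3.3 (offset 16). The arrays were then quantile-normalized and put on the log2 scale. Probes with detection p under 0.01 on at least 3 of 6 arrays were fitted with lmFit and eBayes, hSRY-ON minus hSRY-OFF, without covariates. p-values are two-sided and Benjamini-Hochberg adjusted over all tested probes. The offset shrinks differences of dim probes. The fit was also run on simulated data. There every array had the hSRY-OFF spread, and bright probes were changed by more than any tested member differed here. That run therefore gives no assurance for the member calls. Table symbols were matched to RefSeq of GRCm38.p6 (14307 current, 2927 through an older name, 904 unmatched).

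All probes of the 10 members were named, then a fixed set of stress genes, and in each list the called probe with the smallest p in each direction. The rule that named genes by likeness to the *Hspa5* probe was not applied, since no array detected that probe. The members and lists were chosen with earlier results of these data known, and the promoter motifs after the files had been examined. Markers of biliary cells are not reported here.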

Additional observations from a re-analysis of the deposited data

How the results depend on the processing

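Over 17 alternatives for each of the 8 tested member probes (background correction, offset, scaling, filter, variance model, replicate block and each array left out), 110 of 136 values kept direction and side of the threshold, 25 kept direction but were no longer past it, and 1 turned sign (*Dnajb9*, -0.12 without hSRY-OFF array 1, with a limma adjusted p of 0.703, where its differences with each array left out ran from -0.12 to 0.33). The pooled count includes probes that were not called and so had no call to lose. Of 17 alternatives *Calr* kept its call in 15, *Pdia4* in 13, *Pdia3* in 12 and each *Herpud1* probe in 10. The count of member probes higher in hSRY-ON, 2, became 0 with median scaling, with TMM scaling and with no filter, where 1, 1 and 2 had an unadjusted limma p under 0.05, and 1 with probes averaged per symbol. At an adjusted p under 0.01 the members counted 0 higher and 0 lower (2 and 3 at an unadjusted limma p under 0.05), the pathway lists 7 and 14, and all probes 695 and 974. Leaving out each array in turn gave 0 to 2 higher and 0 to 3 lower member probes, 8 to 20 and 15 to 38 pathway probes, and 894 to 1945 and 1142 to 2122 of all probes. For the pathway and for all probes the lowest counts came without hSRY-OFF array 1. The cause of these changes was not tested, beyond the smaller number of arrays and the stricter threshold themselves.

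Deviations of same-numbered arrays correlated at r = 0.02, 0.10 and 0.05 across probes, and those of differently numbered arrays at -0.17 to 0.13. With 3 arrays per group these values cannot settle whether the replicate numbers pair the samples. *Calr* and both *Herpud1* probes were lowest on array 3 of each group. With the replicate block 2 member probes were higher and 2 lower. *Pdia3* then had a limma adjusted p of 0.0554, *Pdia4* 0.0261, *Calr* 0.0067 and the *Herpud1* probes 0.0157 (ILMN_2790241) and 0.0134 (ILMN_2790246). With the block the pathway lists gave 12 and 29 (1 lower sensor probe, 3 lower oligosaccharyltransferase probes, 1 higher chaperone probe, and 0 higher for the translocon and for Golgi transport), and all probes 1568 and 1645. Dim probes limit what can be said of *Hspa5*, *Canx* and *Pdia6*.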
